A study of Homo sapiens with 4 samples.

Results

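Aminoacyl-tRNA synthetases are the enzymes that join each amino acid to its tRNA before translation. They are described here as transcripts in HGC27, a human gastric cancer cell line, after knockdown of the synthetase for alanine. The 40 genes were chosen by name: 20 genes for cytosolic synthetases or their subunits, 16 genes for mitochondrial synthetases, and scaffold and editing genes. The last were the 3 scaffold genes of the multisynthetase complex (AIMP1, AIMP2 and EEF1E1) and AARSD1, which encodes an editing protein for alanine tRNA. All 40 were among the 14431 genes in the deposited table, under older symbols that in most cytosolic cases now end in 1 (AARS is AARS1). The rule uses names and no measured value, though it was written with results of these data already known.

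The series holds 4 RNA-seq libraries, 2 labelled control (genotype WT) and 2 labelled siAARS1, in which a small interfering RNA was directed at AARS. Cells of both groups were kept in DMEM without glucose, with FBS, antibiotics and 25 mM lactate, so no library without lactate was compared. The labels give 24 h under lactate and the text of the study gives a shorter time, so the duration is uncertain. All libraries come from 1 cell line under transient knockdown, and nothing states that replicates were separate cultures. The p-values therefore measure the spread between these libraries, which may be technical.

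The cytosol and the mitochondrion each need a full set of charged tRNAs. Most amino acids have separate nuclear genes for the cytosolic enzyme and the mitochondrial enzyme, the latter marked by a final 2 in the symbol, while GARS and KARS serve both compartments. In the cytosol, the synthetases for isoleucine, leucine, methionine, glutamine, arginine, lysine, aspartate, glutamate and proline are held together by 3 scaffold proteins in the multisynthetase complex, with glutamate and proline handled by the fused enzyme EPRS. Uncharged tRNA activates the kinase GCN2, and the transcription factor ATF4 that follows is known to raise a subset of cytosolic synthetase genes. AARS also has a described activity of attaching lactate to lysine residues.

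Reads in listed genes numbered 30653210 to 33522573 per library, so 1 read was worth 0.0293 to 0.0324 CPM (the read count scaled to the size of the library). The lowest value of any of the 40 genes was 8.24 CPM, from 274 reads, and none was near the upper limit that 0 reads allow (3 reads, 0.0880 to 0.0971 CPM, counting error only). Changes are log2 fold changes of siAARS1 against control on the log2(CPM + 1) scale from limma, with Benjamini-Hochberg adjustment over all 14199 genes tested and a threshold of 0.05. An exact permutation of 2 libraries against 2 cannot give a p below 0.333. Of all genes tested, 70.7% passed the limma threshold, and the change followed GC content (Spearman rho -0.65 over 13819 genes). For this reason the main changes are set beside the value left after a correction for the length and GC content of the transcript (GC-length correction) and after a second built on properties of the coding region and 3′ UTR (coding-UTR correction). Either correction can also take out real changes that follow these properties. As to the cell label, the epithelial markers KRT8 and CDH1 were low (24.8 and 25.2 CPM, and 2.55 and 1.89 CPM, in the control libraries) and the other 3 of the 5 epithelial markers looked for were not among the listed genes, while the mesenchymal marker VIM had 4600 to 5131 CPM and the fibroblast marker COL1A1 1541 to 2399 CPM over the 4 libraries. CDH2, the other mesenchymal marker looked for, was not listed, nor were PTPRC and PECAM1, markers of other cell types. Both epithelial markers were lower in siAARS1 libraries (6.61 and 5.08 CPM for KRT8, 0.680 and 1.05 CPM for CDH1), as was COL1A1 (2320 and 2399 CPM in control, 1644 and 1541 CPM in siAARS1). VIM was also called lower, at -0.13, and was at 0.13 after the GC-length correction. The part of these markers in the changes of the synthetases was not tested. Of the 40 genes, 14 overlap a listed gene on the opposite strand and 3 a listed gene on the same strand, which matters for the split of reads.

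A known ATF4-responsive element, TGATGNAAN, was looked for on both strands of the promoter windows of the 40 genes (RefSeq, GRCh38.p14, 250 bases before to 50 bases after each start). It is shown because the ATF4-responsive synthetases are described as a group further on. Windows were given for 34 of the 40 genes. DARS, LARS, VARS, YARS, AARS2 and VARS2 had none. The element was in at least 1 window of 8 genes, 7 of the 16 cytosolic synthetase genes and 1 of the 14 mitochondrial ones with a window. All 7 cytosolic carriers were among the 10 genes with a window on the list of ATF4-responsive synthetases taken from general knowledge, and none of the other 6 cytosolic genes carried it. Of all 35116 windows, 3.61% held it, and a gene can have several windows. A match is only a match of letters. The capitals mark the element.
AARS, chr16:70289676-70289704, plus strand (gene on the minus strand): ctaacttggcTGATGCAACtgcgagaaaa
CARS, chr11:3057408-3057436, plus strand (gene on the minus strand): tcctagaatcTGATGCAACcgccgccccg
IARS, chr9:92293693-92293721, plus strand (gene on the minus strand): cgcacggaggTGATGCAACgcgctgaaaa
MARS, chr12:57488053-57488081, minus strand (gene on the plus strand): aatccctcgcTGATGCAACcggaaccggc
NARS, chr18:57621804-57621832, minus strand (gene on the minus strand): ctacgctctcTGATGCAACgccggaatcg
TARS, chr5:33440956-33440984, minus strand (gene on the plus strand): ctggaccagcTGATGCAATcgaaaggcgc
GARS, chr7:30594834-30594862, minus strand (gene on the plus strand): gctcggagcaTGATGAAATcgccgcgtaa
YARS2, chr12:32756076-32756104, minus strand (gene on the minus strand): tccacactgcTGATGGAAAaattaagttt
AARS, CARS, IARS, MARS and NARS shared all 9 bases of the match. The core GGAATG bound by TEAD factors was in windows of 6 of the 34 genes with a window. These were CARS, FARS2, WARS2, YARS2, AIMP1 and AARSD1, and 14.0% of all windows held the core. It was not in the 1 AARS window, where only this exact core was looked for. The study reports a TEAD1-binding motif on the AARS promoter, with chromatin, gel shift and reporter assays. The search made here does not bear on that motif.

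The targeted gene fell, and the rest of the family moved in both directions. Of the 40 genes, 16 were called higher, 14 were called lower and 10 did not pass the threshold, beside 32.6% higher and 38.0% lower among all genes tested. The median log2 fold change of the 40 genes was 0.06, against -0.05 for all genes. In 37 of the 40 genes the values of the groups did not overlap, which was also so for 85.1% of all genes. FARSA, SARS2 and NARS2 were the genes whose groups overlapped. With edgeR TMM on the recovered reads 19 were higher and 13 lower, where 69.1% of all genes were called (34.7% higher and 34.3% lower). The changes ran from WARS at 66.8% of control to EPRS at 553% of control.

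**Figure D1:**
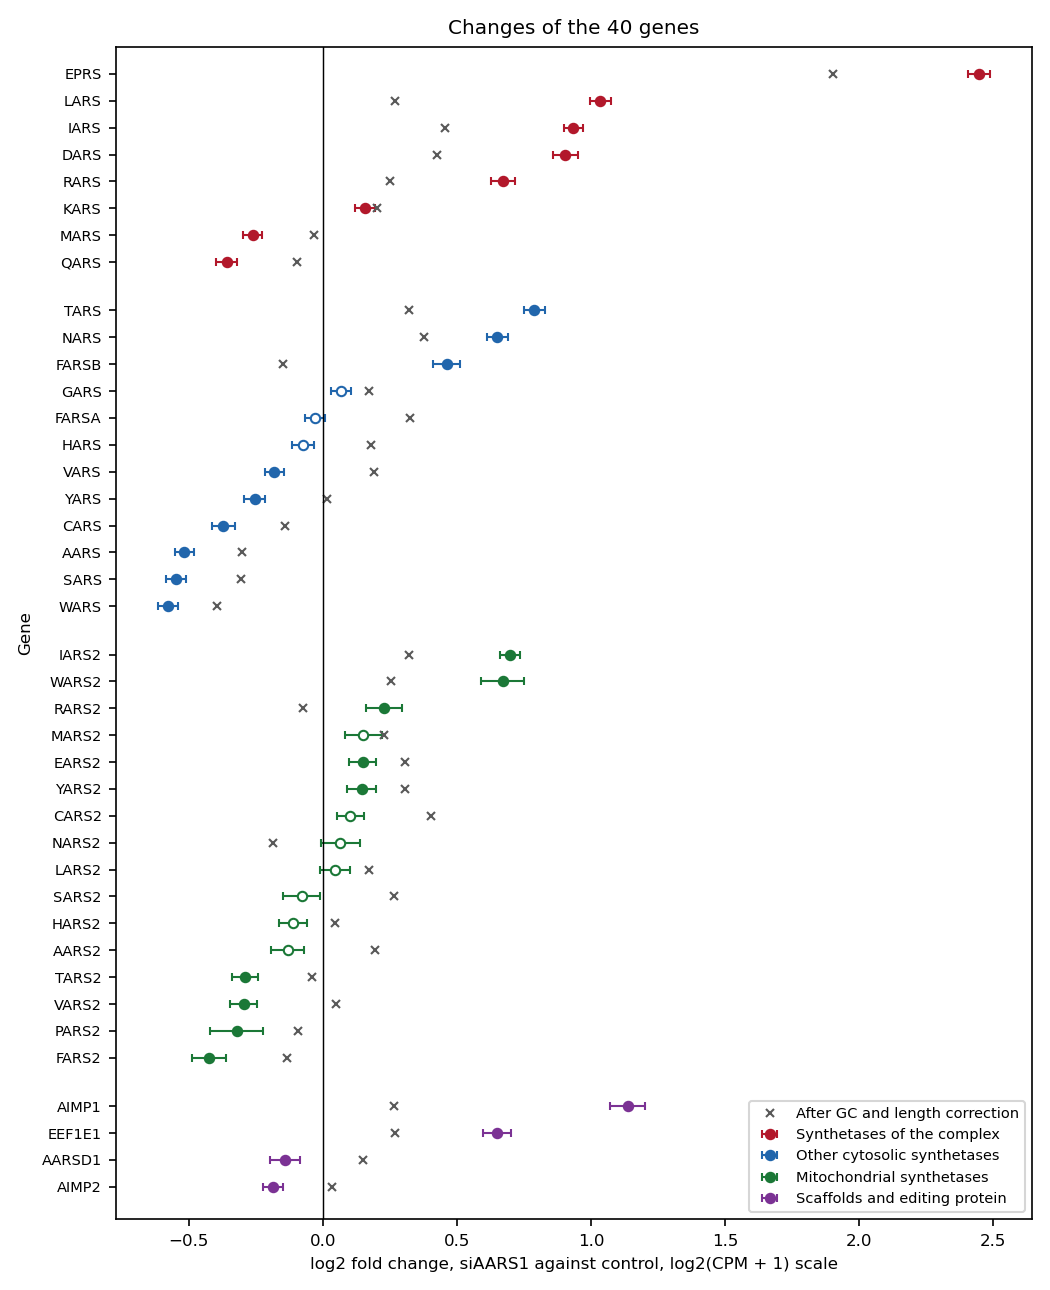
Log2 fold change of siAARS1 against control (x axis, log2(CPM + 1) scale) for each of the 40 genes (y axis), in 4 role groups ordered by size. Circles with bars are the limma estimate and its SE, filled where the gene passed the threshold and open where it did not, and crosses are the values after the GC-length correction. EPRS at 2.45 stands above every other gene, WARS, SARS and AARS lie at the low end of the cytosolic genes, and 10 circles are open.

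AARS (ENSG00000090861, chr16:70252295-70289543, minus strand) encodes the cytosolic alanyl-tRNA synthetase. It had 428 and 417 CPM in control against 292 and 298 CPM in siAARS1 libraries. Both siAARS1 libraries were below both controls, with means of 423 ± 7.79 and 295 ± 3.90 CPM (SD, n = 2), or 69.7% of control. On the log2 scale it fell by 0.52 (SE 0.0357, limma adjusted p = 2.52e-11), and it was still called lower at -0.30 with the GC-length correction and at -0.37 with the coding-UTR correction. Of all genes tested, 11.9% had a log2 fold change as low as that of AARS or lower.

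The change of AARS was compared directly with that of each other gene within the same fit. The difference passed the threshold for 35 of 39 genes, all of them less reduced than AARS or raised, beside 80.3% of all other genes tested. The 4 genes without a called difference were WARS, SARS, FARS2 and PARS2. WARS and SARS were also the 2 genes whose log2 fold change was lower than that of the target itself.

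WARS (ENSG00000140105, chr14:100333788-100376805, minus strand), the cytosolic tryptophanyl-tRNA synthetase, had 285 and 282 CPM in control against 191 and 188 CPM in siAARS1 libraries. Its groups did not overlap, and the log2 change was -0.58 (SE 0.0369, limma adjusted p = 6.74e-12). SARS (ENSG00000031698, chr1:109213918-109238169, plus strand), the cytosolic seryl-tRNA synthetase, had 285 and 276 CPM in control against 191 and 192 CPM in siAARS1 libraries, and the log2 change was -0.55 (SE 0.0374, limma adjusted p = 2.12e-11). The means were 66.8% of control for WARS and 68.3% for SARS, beside 69.7% for the targeted gene. The difference from AARS was -0.06 for WARS (95% interval -0.17 to 0.05, limma adjusted p = 0.280) and -0.03 for SARS (95% interval -0.14 to 0.08, limma adjusted p = 0.594), so each interval held differences in either direction. After the GC-length correction the log2 fold changes were -0.30 for AARS, -0.39 for WARS and -0.31 for SARS.

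Ratios of CPM per kb inside each library, which do not depend on the scaling of the library, showed the same closeness. The ratio of AARS to WARS was 1.34 and 1.32 in the control libraries and 1.36 and 1.41 in the siAARS1 libraries. For AARS to SARS it was 0.801 and 0.805 in control and 0.815 and 0.826 in siAARS1 libraries. Relative to either gene, AARS was therefore not lower in the siAARS1 libraries. Relative to YARS, the tyrosyl-tRNA synthetase, it was lower, at 1.85 and 1.84 in control and 1.51 and 1.57 in siAARS1 libraries. The exact permutation p was 0.333 for each of these ratios, the smallest the design allows. AARS made up 7.83% and 7.62% of the summed CPM per kb of the 20 cytosolic genes in control and 5.01% and 5.09% in siAARS1 libraries, while that sum itself was 107% of control.

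**Figure D2:**
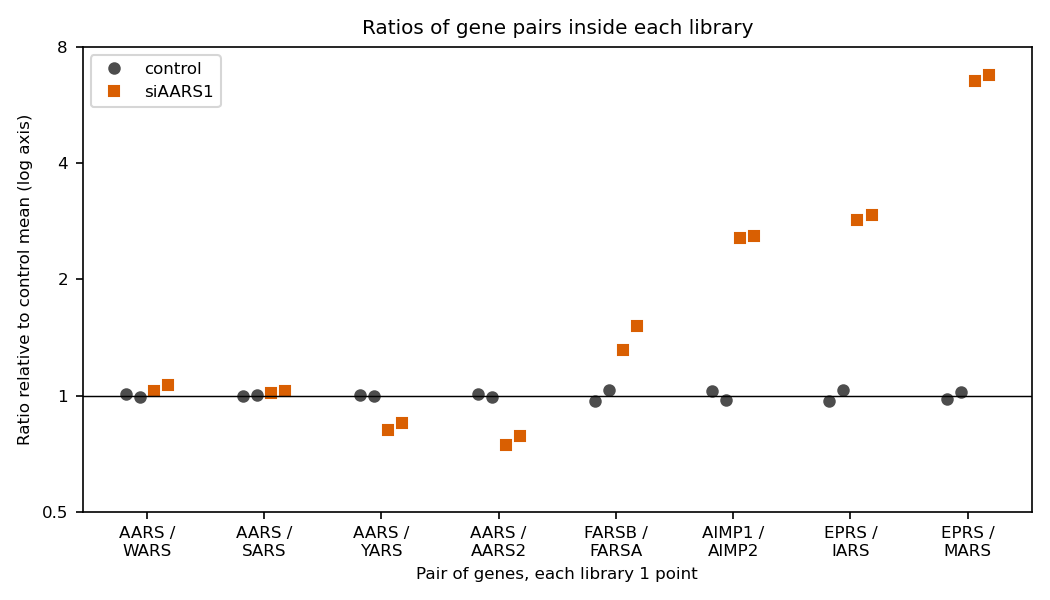
Ratios of CPM per kb of 8 gene pairs inside each library, divided by the control mean of the pair (y axis, log axis), with gene pairs on the x axis. Circles are the 2 control libraries and squares the 2 siAARS1 libraries. The ratios of AARS to WARS and to SARS sit slightly above 1 in the siAARS1 libraries, those to YARS and AARS2 lie below 1, and the ratio of EPRS to MARS is 6.63 times its control mean.

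AARS2 (ENSG00000124608, chr6:44299654-44313326, minus strand), the mitochondrial alanyl-tRNA synthetase, had 35.5 and 35.1 CPM in control against 32.7 and 31.6 CPM in siAARS1 libraries. The groups did not overlap, but the change of -0.13 was not called (SE 0.0612, limma adjusted p = 0.0606), and its call depended on the scaling, the test and the correction used. It was called lower under median scaling (-0.35, limma adjusted p = 1.25e-05), quantile normalization (-0.32, limma adjusted p = 0.000181) and edgeR with library size only (-0.15, adjusted p = 0.0343), and called higher after the GC-length correction (0.19, limma adjusted p = 0.00367) and the coding-UTR correction (0.22, limma adjusted p = 0.000869). Its change differed from that of AARS by 0.39 (95% interval 0.24 to 0.53, limma adjusted p = 4.11e-05). AARSD1 (ENSG00000266967) encodes a protein that removes amino acids wrongly attached to alanine tRNA. The gene had 45.6 and 47.5 CPM in control against 42.2 and 42.1 CPM in siAARS1 libraries. Its log2 change of -0.14 (SE 0.0554, limma adjusted p = 0.0291) lost its call when any 1 of the 4 libraries was left out (limma adjusted p from 0.0523 to 0.208) and was 0.15 after the GC-length correction. AARSD1 shares its locus with the listed readthrough gene PTGES3L-AARSD1 on the same strand, so the split of reads between them is uncertain.

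The synthetases of the multisynthetase complex were mostly higher in siAARS1 libraries. Of the 8 genes, 6 were called higher and 2 lower, beside 32.6% and 38.0% of all genes, with a median log2 fold change of 0.79. Their summed CPM per kb was 496 and 494 in control and 674 and 687 in siAARS1 libraries, or 137% of control. Without EPRS the sum was still 126% of control. The direction of this group depended on the correction used: 6 genes were higher and 1 lower after the GC-length correction (median 0.26, beside 32.8% and 33.3% of all genes), whereas 3 were higher and 5 lower after the coding-UTR correction (median -0.14, beside 34.0% and 31.4%).

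EPRS (ENSG00000136628, chr1:219968601-220046658, minus strand) charges the tRNAs of glutamate and proline. It rose from 62.5 and 65.9 CPM in the control libraries to 347 and 362 CPM in the siAARS1 libraries. On average this was a move from 64.2 ± 2.43 to 355 ± 10.7 CPM (SD, n = 2), or 5.53 times the control level. It rose by 2.45 on the log2 scale (SE 0.0421, limma adjusted p = 4.65e-21), a value that was 1.90 after the GC-length correction and 0.79 after the coding-UTR correction. EPRS moved from 0.793% and 0.835% of the summed CPM per kb of the cytosolic genes in control to 4.13% and 4.30% in siAARS1 libraries. On the CPM per kb scale its control level of 12.8 ranked the 32nd of the 40 genes and was the lowest of the cytosolic genes.

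LARS (ENSG00000133706, chr5:146113038-146182660, minus strand), the leucyl-tRNA synthetase, which is also known as a leucine sensor for mTORC1, had 131 and 130 CPM in control against 262 and 275 CPM in siAARS1 libraries. The log2 change was 1.04 (SE 0.0393, limma adjusted p = 7.81e-16), 0.27 after the GC-length correction and -0.42 after the coding-UTR correction. IARS (ENSG00000196305, chr9:92210207-92293756, minus strand), for isoleucine, had 343 and 338 CPM in control against 647 and 655 CPM in siAARS1 libraries, an increase of 0.93 (SE 0.0344, limma adjusted p = 4.62e-16) that became 0.45 and -0.20 after the same corrections. The means were 206% of control for LARS and 191% for IARS, and the sign left for both genes was opposite between the corrections. DARS, for aspartate, had a log2 fold change of 0.90 and stayed higher after both corrections (0.43 and 0.18). RARS, for arginine, had 0.67, with 0.25 and -0.26 after the corrections.

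KARS, which charges lysine tRNA in both compartments, was higher by 0.16 (294 and 290 CPM in control, 324 and 328 CPM in siAARS1), but under median scaling of the libraries it was at -0.071 without a call (limma adjusted p = 0.113), and 0.20 and 0.08 after the corrections. QARS (ENSG00000172053, chr3:49095932-49105135, minus strand), for glutamine, fell from 216 and 214 CPM to 173 and 162 CPM, a change of -0.36 (SE 0.0403, limma adjusted p = 7.40e-08) that was -0.10 and -0.13 after the corrections and still past the threshold. MARS (ENSG00000166986, chr12:57475445-57517569, plus strand), for methionine, had 269 and 271 CPM in control against 224 and 226 CPM in siAARS1 libraries. Its log2 change of -0.26 (SE 0.0364, limma adjusted p = 1.65e-06) was not past the threshold after the GC-length correction (-0.03, limma adjusted p = 0.339) and was -0.16 after the coding-UTR correction. Members of 1 complex thus moved apart: the ratio of EPRS to MARS, in CPM per kb, was 0.135 and 0.141 in control and 0.898 and 0.931 in siAARS1 libraries.

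**Figure D3:**
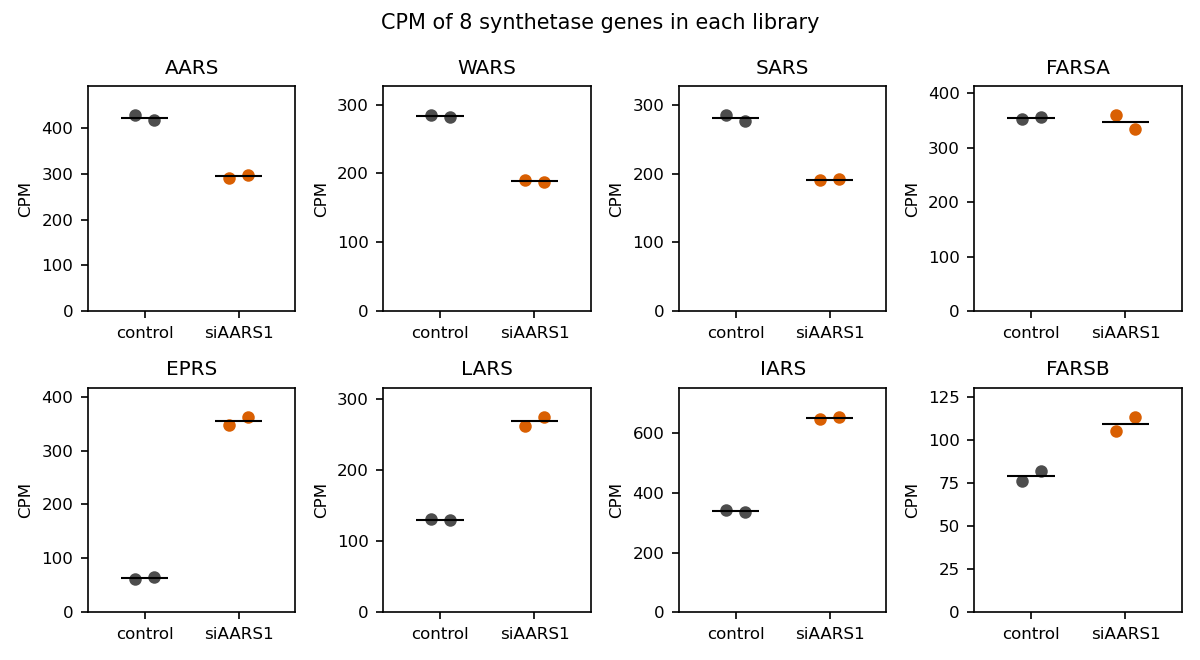
CPM (y axis, each from 0) of 8 genes in the control and siAARS1 groups (x axis). Each point is 1 library and each line the mean of 2. AARS, WARS and SARS are lower in both siAARS1 libraries, EPRS, LARS, IARS and FARSB are higher in both, and the values of FARSA overlap.

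The scaffolds of the complex did not move together. AIMP1 (ENSG00000164022, chr4:106315544-106349226, plus strand), which carries the tRNA-binding domain of the complex and the EMAPII cytokine, had 21.3 and 19.7 CPM in control and 46.3 CPM in both siAARS1 libraries. It rose by 1.14 on the log2 scale (SE 0.0649, limma adjusted p = 9.61e-13) and was 0.27 and 0.51 after the corrections. EEF1E1 (ENSG00000124802, chr6:8073360-8102578, minus strand), also named AIMP3, rose from 38.7 and 39.0 CPM to 61.8 and 61.3 CPM, an increase of 0.65 (SE 0.0529, limma adjusted p = 4.39e-10) that was 0.27 and 0.47 after the corrections. AIMP2 (ENSG00000106305, chr7:6009245-6023834, plus strand), the core scaffold, had 287 and 280 CPM in control against 250.3 and 248 CPM in siAARS1 libraries. Its log2 change of -0.19 (SE 0.0366, limma adjusted p = 0.000121) was near 0 after either correction (0.034 and 0.00018). The ratio of AIMP1 to AIMP2 in CPM per kb was 0.0361 and 0.0343 in control and 0.0900 and 0.0909 in siAARS1 libraries, so it was 2.57 times the control level.

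The cytosolic synthetases outside the complex were split. Of the 11 genes other than AARS, 3 were called higher, 5 lower and 3 did not pass the threshold, with a median log2 fold change of -0.08, beside 32.6% higher and 38.0% lower among all genes. After the GC-length correction 6 were higher and 4 lower (median 0.17), beside 32.8% and 33.3% of all genes. The coding-UTR correction gave 5 and 6, beside 34.0% and 31.4%. Under median scaling 3 were higher and 8 lower, where 11378 of all 14199 genes were called and 29.7% of these calls were higher. The summed CPM per kb of the 11 genes was 95.4% of control. TARS (ENSG00000113407, chr5:33440696-33469539, plus strand), for threonine, rose from 166 and 171 CPM to 285 and 298 CPM, an increase of 0.79 (SE 0.0389, limma adjusted p = 7.70e-14) with 0.32 and 0.12 after the corrections. NARS (ENSG00000134440, chr18:57600656-57622213, minus strand), for asparagine, rose from 161 and 168 CPM to 258 and 260 CPM, an increase of 0.65 (SE 0.0383, limma adjusted p = 1.68e-12) with 0.38 and 0.25 after the corrections. TARS and NARS were higher under both corrections. Among the lower genes, CARS (ENSG00000110619, chr11:3000922-3057613, minus strand), for cysteine, went from 111 and 110 CPM to 85.7 and 84.7 CPM, a change of -0.37 (SE 0.0435, limma adjusted p = 1.42e-07) with -0.14 and -0.27 after the corrections. YARS, for tyrosine, and VARS, for valine, were at -0.25 and -0.18, and after the GC-length correction they were at 0.014 and 0.19. After the coding-UTR correction YARS was still called lower (-0.15) and VARS was at 0.13.

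Cytosolic phenylalanyl-tRNA synthetase is built of subunits from separate genes, and these gave different results. FARSA (ENSG00000179115, chr19:12922479-12934037, minus strand), the catalytic alpha subunit, had 352 and 357 CPM in control against 359 and 335 CPM in siAARS1 libraries, with overlapping groups and a log2 change of -0.03 (limma adjusted p = 0.493). FARSB (ENSG00000116120, chr2:222570536-222656337, minus strand), the beta subunit, rose from 76.0 and 82.2 CPM to 105 and 114 CPM, an increase of 0.46 (SE 0.050, limma adjusted p = 4.16e-08). The ratio of FARSB to FARSA in CPM per kb was 0.116 and 0.124 in control and 0.158 and 0.182 in siAARS1 libraries. The transcripts differ in GC content, 41.6% for FARSB and 61.4% for FARSA, and after the GC-length correction the order was turned, with -0.15 for FARSB and 0.33 for FARSA. GARS and HARS, for glycine and histidine, did not pass the threshold (0.07 and -0.08) and were at 0.17 and 0.18 after the GC-length correction. After the coding-UTR correction GARS was called lower at -0.12 (limma adjusted p = 0.000613) and HARS called higher at 0.14 (limma adjusted p = 0.000876). HARS and HARS2 overlap on opposite strands, WARS overlaps WDR25 and MARS overlaps DDIT3 in the same way, and the use of strand in counting is not given in the sources used here.

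The 16 mitochondrial synthetases moved in both directions, from -0.43 to 0.70. Of these, 5 were called higher, 4 lower and 7 did not pass the threshold, with a median log2 fold change of 0.06 and a summed CPM per kb that was 108% of control. Of all genes 32.6% were higher and 38.0% lower. After the GC-length correction 9 were higher and 2 lower, beside 32.8% and 33.3% of all genes. The coding-UTR correction gave 7 higher and 3 lower of the 15 genes with a value, beside 34.0% and 31.4% of all genes. Under median scaling 2 were higher and 9 lower, where 11378 of all 14199 genes were called and 29.7% of these calls were higher. IARS2 (ENSG00000067704, chr1:220094102-220148041, plus strand), for isoleucine, rose from 150 and 152 CPM to 244 and 246 CPM, an increase of 0.70 (SE 0.0379, limma adjusted p = 4.22e-13) that was 0.32 and -0.21 after the corrections. WARS2 (ENSG00000116874, chr1:119031216-119140671, minus strand), for tryptophan, rose from 14.4 and 14.1 CPM to 22.1 and 24.6 CPM, an increase of 0.67 (SE 0.0811, limma adjusted p = 2.30e-07) that was 0.25 and 0.66 after the corrections. WARS2 thus rose while its cytosolic counterpart fell, and the ratio of WARS to WARS2 in CPM per kb went from 17.9 and 18.1 in control to 7.84 and 6.92 in siAARS1 libraries. RARS2 (ENSG00000146282, chr6:87514378-87590003, minus strand), for arginine, had 23.1 and 23.2 CPM in control against 27.6 and 27.0 CPM in siAARS1 libraries, a change of 0.23 (SE 0.0682, limma adjusted p = 0.00529) that was 0.0083 under median scaling and -0.076 and -0.54 after the corrections. EARS2 and YARS2 were called higher at 0.15 and 0.14, and under median scaling they were at -0.078 and -0.081 without a call (limma adjusted p = 0.163 and 0.176). Both were at 0.31 after the GC-length correction.

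FARS2 (ENSG00000145982, chr6:5261044-5829192, plus strand), for phenylalanine, fell from 37.8 and 35.9 CPM to 27.8 and 26.6 CPM. Its log2 change of -0.43 (SE 0.0639, limma adjusted p = 4.57e-06) was -0.13 after the GC-length correction. PARS2 (ENSG00000162396, chr1:54756898-54764514, minus strand), for proline, had 10.9 and 11.2 CPM in control against 8.97 and 8.24 CPM in siAARS1 libraries, the fewest reads of the 40 genes, and its log2 change of -0.32 (SE 0.10, limma adjusted p = 0.00694) was not past the threshold without siAARS1 replicate 2 (-0.27, limma adjusted p = 0.0632), in DESeq2 (adjusted p = 0.0977) or after the corrections (-0.093 and -0.051, limma adjusted p = 0.384 and 0.641). VARS2 (ENSG00000137411, chr6:30908242-30926459, plus strand), for valine, had 69.4 and 71.2 CPM in control against 57.3 and 56.9 CPM in siAARS1 libraries. Its log2 change of -0.30 (SE 0.0490, limma adjusted p = 1.58e-05) was near 0 after the corrections (0.048 and 0.026), and the gene overlaps GTF2H4 on the same strand. TARS2, for threonine, was at -0.29 and likewise near 0 after the corrections (-0.041 and -0.011). The 7 mitochondrial genes that did not pass the threshold were AARS2 and 6 others, MARS2 at 0.15, CARS2 at 0.10, NARS2 at 0.07, LARS2 at 0.05, SARS2 at -0.08 and HARS2 at -0.11. After the GC-length correction these were 0.23, 0.40, -0.19, 0.17, 0.27 and 0.044 in the same order. After the coding-UTR correction they were 0.20, 0.38, -0.33, 0.07, 0.28 and -0.015.

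Cytosolic and mitochondrial enzymes for the same amino acid were set side by side in 17 pairs. In 4 pairs both genes were called in the same direction (IARS and IARS2, RARS and RARS2, EPRS and EARS2, VARS and VARS2), and in 5 pairs they were called in opposite directions (TARS and TARS2, WARS and WARS2, YARS and YARS2, EPRS and PARS2, FARSB and FARS2). In the other 8 pairs at least 1 gene did not pass the threshold. Of all genes tested, 32.6% were called higher and 38.0% lower, so pairs of either kind also arise among unrelated genes. The pairs are not independent, as EPRS and FARS2 recur, and no excess of either kind was tested. Under median scaling EARS2 and YARS2 were not called, so neither of their pairs with EPRS and YARS had both genes called. The ratio of HARS to HARS2 in CPM per kb overlapped between groups, with 2.36 and 2.31 in control and 2.43 and 2.36 in siAARS1 libraries (exact permutation p = 0.667). Per kb in control libraries the cytosolic gene was higher in every pair except EPRS and EARS2, by as little as 1.08 times for FARSB over FARS2 and by 13.3 times for AARS over AARS2.

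Levels per kb of transcript spanned a wide range before any knockdown. In control libraries AIMP2 was the highest of the 40 genes at 231 CPM per kb, followed by FARSA at 195, SARS at 151, KARS at 146, GARS at 133 and AARS at 122. PARS2 (4.69) and WARS2 (5.09) were the lowest. In siAARS1 libraries AARS was at 84.8 CPM per kb, close to NARS at 83.6, and IARS was at 139.8, close to GARS at 139.5.

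Changes in the family went with GC content. Over the 40 genes, Spearman's rho of the log2 fold change with the GC content of the principal transcript was -0.76, and it was -0.74 over the 19 cytosolic genes other than AARS and -0.72 over the 16 mitochondrial genes, beside -0.65 over all genes. These are descriptions across genes, all measured in the same 4 libraries. The 16 genes called higher had a GC content of 35.6% to 51.6% (median 42.8%) and the 14 called lower had 51.5% to 62.6% (median 54.1%), so the ranges barely met. The rho with transcript length was 0.21. WARS, SARS and AARS, with GC contents of 51.8%, 52.5% and 53.5%, were lower than other genes of the family at similar GC content, and EPRS at 43.2% was higher than those near it. The part of GC content in these changes was not tested beyond the corrections.

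**Figure D4:**
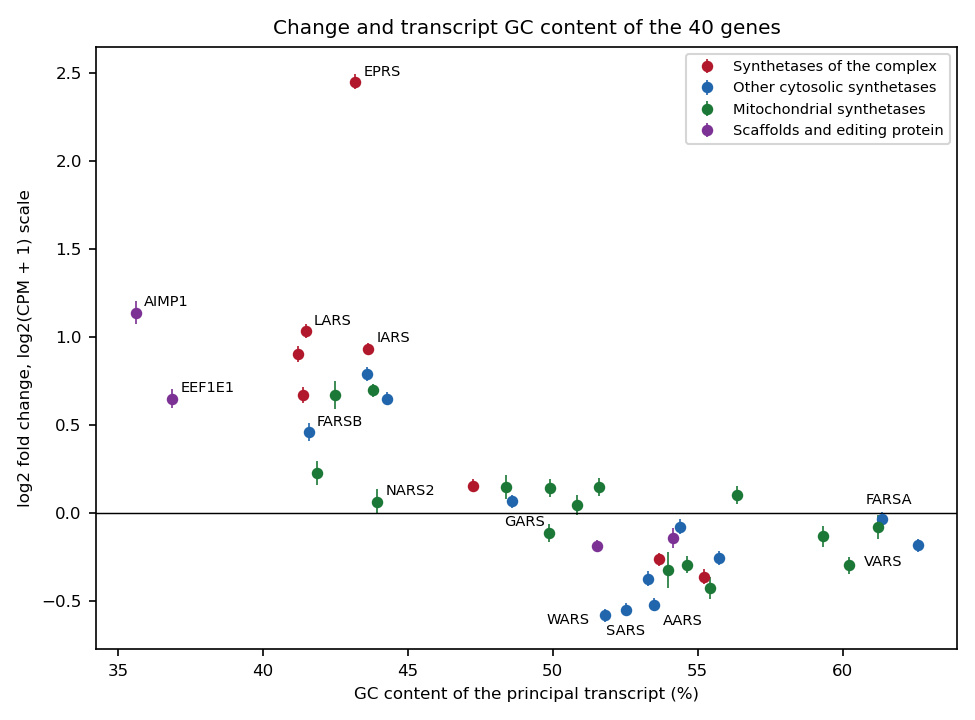
Log2 fold change of siAARS1 against control (y axis, log2(CPM + 1) scale, bars are the SE) against the GC content of the principal transcript in percent (x axis) for the 40 genes, coloured by role. Genes called higher lie at 35.6% to 51.6% GC and genes called lower at 51.5% to 62.6%, with EPRS far above the genes near it and WARS, SARS and AARS lowest.

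With each correction applied on its own, 15 of the 40 genes kept the call of the uncorrected fit under both. The share of all genes that kept theirs was not counted. The 10 that stayed higher were EPRS, DARS, TARS, NARS, KARS, AIMP1, EEF1E1, WARS2, YARS2 and EARS2, though KARS, YARS2 and EARS2 were not called under median scaling, where their signs were negative. The 5 that stayed lower were AARS, WARS, SARS, CARS and QARS. FARS2 stayed lower after the GC-length correction (-0.13, limma adjusted p = 0.0421) and had no coding-UTR value, so it is not among the 15. The GC-length correction gave 24 genes called higher and 8 lower, beside 32.8% and 33.3% of all genes (66.1% called in all). The coding-UTR correction gave 17 higher and 15 lower of the 39 genes with a value, beside 34.0% and 31.4% of all genes (65.4% called in all). A sign opposite to the called direction was seen for 7 genes after the first correction and for 10 after the second. The matching shares of all genes were not counted.

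By enzyme class, the 10 class I cytosolic synthetases had 4 genes called higher and 6 lower, and the 9 class II genes other than AARS had 5 higher and 1 lower. Median log2 fold changes were -0.22 and 0.16, and 32.6% of all genes were higher and 38.0% lower. The GC-length correction gave 5 higher and 3 lower in class I (median 0.10) and 7 and 2 in class II, and the coding-UTR correction gave 2 and 8 in class I and 6 and 3 in class II, so the direction of class I depended on the correction. The 11 genes other than AARS on the list of ATF4-responsive synthetases had 5 called higher, 5 lower and 1 not past the threshold. They had 6 higher and 3 lower after the GC-length correction and 3 and 8 after the coding-UTR correction. Beside these counts and those of the classes, 32.8% of all genes were higher and 33.3% lower after the GC-length correction. After the coding-UTR correction 34.0% were higher and 31.4% lower. The 8 cytosolic genes not on that list had 4 higher, 2 lower and 2 not past the threshold. Among the 7 cytosolic genes with the element printed above, IARS, NARS and TARS were called higher, AARS, CARS and MARS lower, and GARS did not pass the threshold. The element was thus in windows of genes that moved either way.

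Other genes of tRNA charging and of the response to uncharged tRNA were read from lists of general knowledge. Of 10 genes of the GCN2 and ATF4 response, 8 were called lower, 1 higher (EIF2AK4, which encodes GCN2, at 0.21, with 0.13 and -0.38 after the corrections) and 1 was not called, with a median log2 fold change of -0.32, beside 38.0% lower and 32.6% higher among all genes. ASNS, asparagine synthetase, a classical ATF4 target, fell from 172 and 174 CPM to 107 and 112 CPM, a log2 change of -0.65 (limma adjusted p = 6.45e-12) that remained at -0.63 after the GC-length correction and was -1.14 after the coding-UTR correction. TRIB3, another ATF4 target, was also at -0.65 (-0.31 and -0.26 after the corrections), and CHAC1, a glutathione-degrading enzyme of the same response, was at -0.45 (-0.12 and -0.055). CHAC1 was not called after either correction (limma adjusted p = 0.240 and 0.595). ATF4 itself was called lower at -0.23, and called higher after the GC-length correction (0.08, limma adjusted p = 0.0252). After the coding-UTR correction ATF4 was at -0.016 without a call (limma adjusted p = 0.608). After the GC-length correction 3 of these 10 genes were called higher and 4 lower, beside 32.8% and 33.3% of all genes. The coding-UTR correction gave 1 higher and 5 lower, beside 34.0% and 31.4% of all genes. With edgeR TMM 1 was higher and 6 were lower, beside 34.7% and 34.3% of all genes.

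Of 16 genes that work beside the synthetases, such as amidotransferase subunits, elongation factors and other charging enzymes, 4 were called higher, 4 lower and 8 did not pass the threshold, with a median log2 fold change of 0.00, beside 32.6% higher and 38.0% lower among all genes. After the GC-length correction 3 were higher and 9 lower, beside 32.8% and 33.3% of all genes. Under median scaling 1 was higher and 10 lower, where 11378 of all 14199 genes were called and 29.7% of these calls were higher. SEPSECS, which completes selenocysteine on its tRNA, rose from 5.48 and 5.64 CPM to 10.7 and 10.8 CPM, a log2 fold change of 0.84 that was -0.38 after the GC-length correction. EEF1G, a subunit of the elongation factor complex that receives charged tRNA, was at -0.36, and at -0.058 and -0.11 after the corrections. QRSL1, a subunit of the mitochondrial amidotransferase that makes glutaminyl-tRNA, was at 0.37 and at -0.43 after that correction.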

How the data were processed

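The authors deposited 1 table of CPM values for 14431 genes. Per the labels, the submitters' processing notes name RSEM 1.3.3 and hg38, with the aligner, annotation and use of strand not given in the sources used here. Each deposited CPM value was a whole number of reads within 0.0005 CPM (whole in 100% of values), so reads were recovered for count tests. Values were tested as log2(CPM + 1), siAARS1 against control, with limma 3.58.1 (trended eBayes, R 4.3.3) over the 14199 genes whose mean reached 1 CPM in either group. The main text of the study gives no single-gene test and leaves its detailed methods to a supplement. Count tests of recovered reads used edgeR 4.0.16, which called 69.1% of genes with TMM, and DESeq2 1.42.0. Corrections used mgcv 1.9.3 and GENCODE v29 (GRCh38), whose coordinates are printed. Scripts were tested on simulated data. The 40 genes, the lists and the settings were chosen with earlier results of these data known. Genes described in full were AARS, AARS2 and, in each role group, the called genes furthest up and furthest down (at most 3 each way), plus AARSD1, and others are named for their role. Replicates differed beyond sampling noise (chi-square per gene 3.63 and 3.62) and counted as separate samples. Of the 40 genes, 16 overlapped another listed gene.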

Additional observations from a re-analysis of the deposited data

How the results depend on the processing

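AARS was called lower in each of the alternatives run, from -0.75 (median scaling) to -0.30 (GC-length correction), and -0.54 to -0.50 when a library was left out. Median scaling moved the median of all genes from -0.05 to -0.26 and the share of calls that were higher from 46.2% to 29.7% (37.0% with quantile normalization). Cytosolic genes other than AARS called lower numbered 11, in place of 7, after the coding-UTR correction, which was chosen after seeing the data. Of all genes, 38.0% were lower in the reported fit and 31.4% after that correction. Calls over all genes moved between settings as well. They numbered 10032 in the reported fit, 11378 under median scaling, 10760 under quantile normalization and 8714 at a threshold of 0.01 (47.9% of these higher). After the GC-length correction 32.8% of all genes were higher and 33.3% lower. Mitochondrial genes called higher, 5 in the reported fit, numbered 2 under median scaling or quantile normalization, 3 at a threshold of 0.01, 9 after the GC-length correction, and 3 to 6 when a library was left out (3 without control replicate 1 or siAARS1 replicate 1, which lost EARS2 and YARS2). Mitochondrial genes called lower, 4 in the reported fit, numbered 9 under median scaling, 7 under quantile normalization and 2 after the GC-length correction, and 3 to 4 when a library was left out. Of the called genes, 7 had the opposite sign after the GC-length correction: YARS (0.014), VARS (0.19), FARSB (-0.15), RARS2 (-0.076), VARS2 (0.048), AIMP2 (0.034) and AARSD1 (0.15). AARS2, not called in the reported fit, turned to 0.19. The values were the same when the replicate block was added. After the coding-UTR correction 10 had the opposite sign: RARS (-0.26), VARS (0.13), FARSB (-0.28), LARS (-0.42), IARS (-0.20), IARS2 (-0.21), RARS2 (-0.54), VARS2 (0.026), AIMP2 (0.00018) and AARSD1 (0.078), and AARS2 turned to 0.22. The causes were not tested, and the share of all genes whose sign turned was not counted.

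The deviations of same-numbered libraries correlated at 0.12 over 2 pairs, and nothing states a pairing, so numbers were read as names. With the replicate block 10389 genes were called in place of 10032, and HARS2, AARS2, CARS2 and MARS2 were newly called (AARS2 -0.13, limma adjusted p = 0.0444). With 2 libraries a group, small changes of low genes such as PARS2 and AARSD1 are the least certain. Leaving out a library leaves 1 sample in a group, which is then assumed to vary like the other group.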
